A study of Monodelphis domestica with 25 samples.

Results

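Among the transcripts counted in cultured opossum blood, 4 were selected on their counts, which were lower in libraries treated with perfluorooctanoic acid (PFOA) than in control or GenX libraries. They are ENSMODT00000001267, ENSMODT00000003531, ENSMODT00000018652 and ENSMODT00000007603, 4 of the 22059 transcripts and named features in the deposited tables. In untreated blood these 4 did not form a single group. ENSMODT00000001267, ENSMODT00000003531 and ENSMODT00000018652 were low in fresh blood, at 0.0571 to 6.86 CPM (counts scaled to the library total), and rose during culture, whereas ENSMODT00000007603 was already abundant in fresh blood and fell by 72 h. With PFOA, the counts of these risers came to 1.66%, 5.70% and 17.3% of what the control level predicted, and those of ENSMODT00000007603 to 22.5%. These shares sum counts over the 4 PFOA libraries, so the deeper 12 h libraries weigh most. As unweighted means of CPM the PFOA level was 1.70%, 7.64%, 34.7% and 28.8% of control, in the same order. Low values with PFOA were part of how the 4 were selected.

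Blood of LSD strain Monodelphis domestica, the gray short-tailed opossum, a marsupial, was cultured in medium with antibiotics. Polyadenylated RNA was sequenced with a kit that keeps the strand, from samples the submitters selected for RNA quality. An untreated time course held 3 libraries at each of 0, 12, 24, 48 and 72 h, labelled A0036, A0039 and A3538. A treatment experiment held 4 controls, 2 at 12 h (R1 and R2) and 2 at 24 h (R2 and R3), 4 PFOA libraries and 2 GenX libraries. The PFOA libraries were 1 each of 400 and 800 µM at 12 h (both R2) and of 400 and 800 µM at 24 h (both R1), and the GenX libraries were 1200 µM at 12 h (R3 and R4). The titles say only low and high; these words were read as the smaller and the larger concentration of each compound in the protocol. Per the protocol, dimethyl sulfoxide was at 0.1% by volume in treated and control cultures alike, but the controls carry the label untreated, which leaves their solvent uncertain. Titles of the treatment experiment share 1 identifier, A9394, and the labels do not say whether R1 to R4 are animals or wells. The p-values below therefore reflect how far such cultures varied, and that variation may be technical. Time course blood was used at 2 dilutions, and which library had which is not labelled. The design text counts 14 time course libraries and the labels list 15.

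PFOA and GenX are fluorinated carboxylic acids used in making fluoropolymers, GenX as a replacement for PFOA, with an ether oxygen in its shorter carbon chain. PFOA binds to serum albumin and, in liver, activates the fatty acid receptor PPAR alpha, and exposure to it has been linked to changes in immune function. Whole-blood culture keeps red cells, leukocytes, platelets and plasma together. Leukocytes placed in culture change their transcription within hours, and short-lived cells such as neutrophils die over the following days, so levels move with time even without a compound. In such bulk RNA, fewer cells of a type and less RNA per cell cannot be told apart.

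The files name these 4 transcripts by Ensembl identifier alone, and 0 identifiers matched the reference gene table used here, so no gene name, role or sequence is given for any of them. Levels are given as CPM, counts relative to the library total after scaling of each library by the trimmed mean of M-values (TMM). Without transcript lengths, CPM values of different transcripts cannot be compared with each other. The time course libraries had totals of 51349217 to 336472834 counts. In the treatment experiment the 4 controls held 4487453 to 11685427, the GenX pair 3654215 and 6433771, and the PFOA libraries only 366269 to 4027470. Depth therefore moved with treatment: a floor of 3 counts was 0.239 to 0.613 CPM in the controls but 0.723 to 9.52 CPM in the PFOA libraries. In both tables about 71.0% of values from 1 to 12 were even numbers, so single counts were not independent, and the counting intervals below are too narrow and cover counting error only. All 4 transcripts passed the low-count filter of the treatment experiment. Because control, PFOA and GenX columns chose them, the values that follow describe the choice and carry no test.

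ENSMODT00000001267 was at 65.0, 63.1, 57.0 and 69.4 CPM in the controls (12 h R1, 12 h R2, 24 h R2, 24 h R3), from 576, 792, 279 and 383 counts. With PFOA it was at 0.964 CPM in the 400 µM, 12 h library (4 counts), 0.871 CPM in the 800 µM, 12 h library (2 counts) and 2.50 CPM in the 400 µM, 24 h library (2 counts). The 800 µM, 24 h library had 0 counts. Every PFOA library was far below the lowest control, and the control values lay close together at 63.6 CPM ± 5.15 (SD, n = 4) against 1.08 ± 1.04 (SD, n = 4) with PFOA. Each PFOA library is a different dose and time, and the controls span both times. The SDs over 4 libraries, here and below, therefore describe spread across conditions and not among replicates. With GenX it was at 41.8 and 63.5 CPM, so 1 of the 2 GenX libraries lay within the control range and the other below it.

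ENSMODT00000003531 likewise had a narrow control range, with 17.4, 14.97, 16.3 and 16.9 CPM from 154, 188, 80 and 93 counts. The PFOA libraries held 4 counts (0.964 CPM, 400 µM, 12 h), 2 counts (0.871 CPM, 800 µM, 12 h), 0 counts (400 µM, 24 h) and 1 count (3.17 CPM, 800 µM, 24 h). The groups did not overlap, at 16.4 CPM ± 1.03 (SD, n = 4) and 1.25 ± 1.35 (SD, n = 4). With GenX it was at 15.7 and 20.04 CPM, within and just above the control values.

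ENSMODT00000018652 was at 16.2, 15.6, 16.6 and 16.7 CPM in the controls, from 144, 196, 81 and 92 counts, and so varied least among them (16.3 CPM ± 0.478, SD, n = 4). With PFOA it was at 1.93 CPM (8 counts) and 1.74 CPM (4 counts) at 12 h, at 400 and 800 µM, and at 6.25 CPM (5 counts) and 12.7 CPM (4 counts) at 24 h. All 4 were below the controls, but the 24 h libraries were nearer to them. With GenX it stood at 62.6 and 80.2 CPM, from 403 and 264 counts, above every control, so that it was low with one compound and high with the other.

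ENSMODT00000007603 was the most variable in the controls, at 186 and 137 CPM after 12 h and 90.9 and 121 CPM at 24 h, from 1652, 1715, 445 and 666 counts. With PFOA it was at 38.1 CPM (158 counts) and 25.3 CPM (58 counts) at 12 h, at 400 and 800 µM, and at 33.7 CPM (27 counts) and 57.1 CPM (18 counts) at 24 h. The GenX libraries, at 62.6 and 52.5 CPM from 403 and 173 counts, were also below every control, and 1 of them was below the highest PFOA library. This was the only one of the 4 with both GenX libraries below all controls. The share of all transcripts with such a pattern is not given here, so nothing is read from that count.

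**Figure D1:**
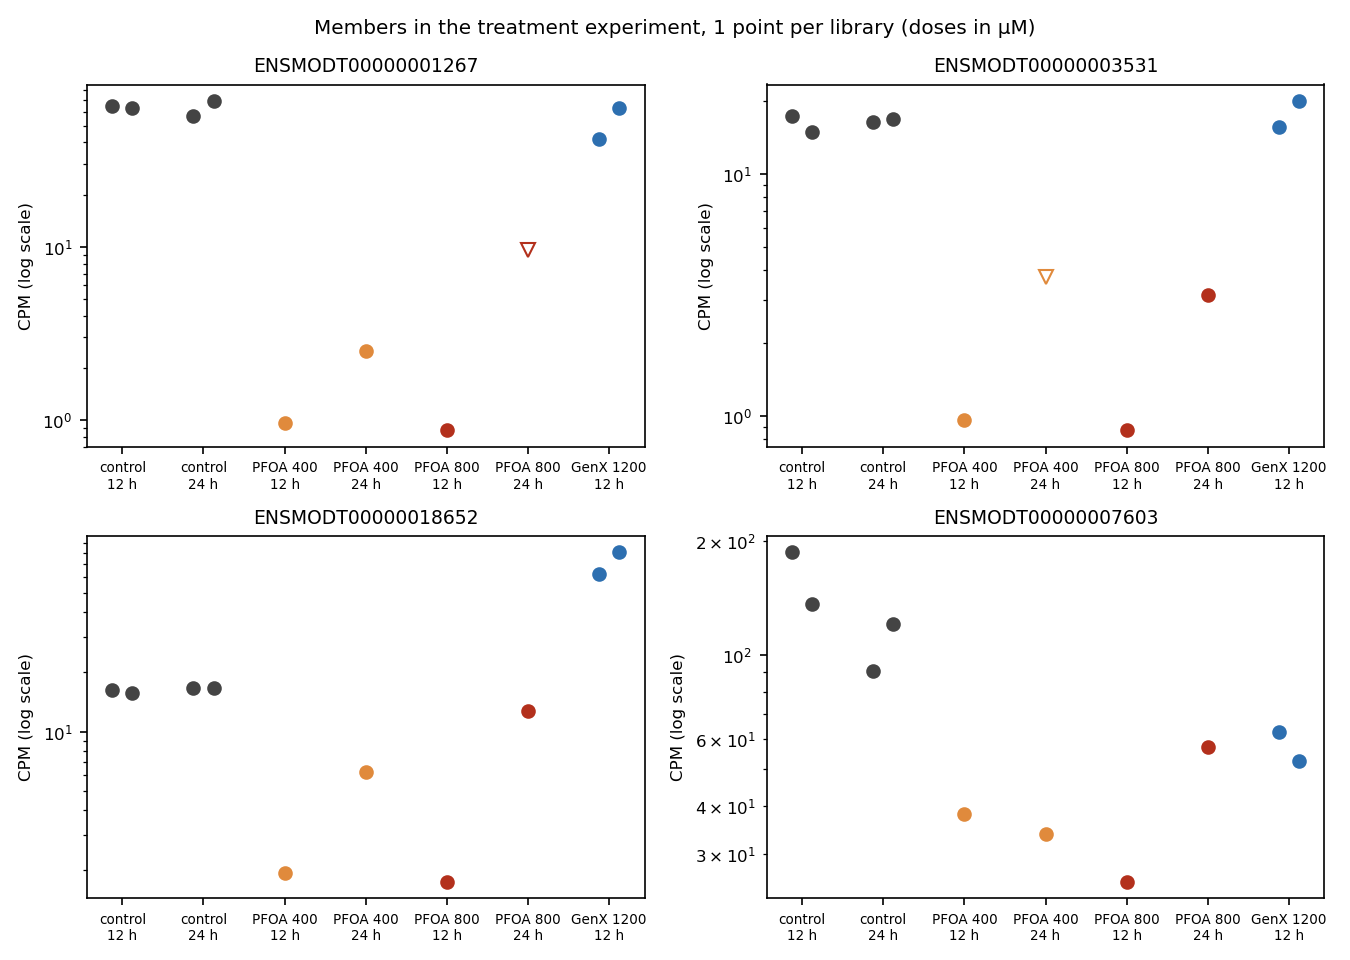
Level of each transcript in the 10 libraries of the treatment experiment (CPM, log axis), with 1 point per library by treatment and time; open triangles mark libraries with 0 counts, drawn at the level of 3 counts. PFOA points lie below all control points for each of the 4 transcripts, and GenX points lie at or near the controls for ENSMODT00000001267 and ENSMODT00000003531, above them for ENSMODT00000018652 and below them for ENSMODT00000007603.

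In the fit of all 10 libraries with treatment and time, the fitted log2 difference of PFOA from control was -5.84 for ENSMODT00000001267 (57.3-fold lower), -4.09 for ENSMODT00000003531 (17.1-fold), -2.24 for ENSMODT00000018652 (4.73-fold) and -1.89 for ENSMODT00000007603 (3.71-fold). So 3 of the 4 were at least 4-fold lower, as were 0.661% of the 12565 transcripts tested, where the median log2 difference was -0.04. Since this contrast chose the members, nothing is read from that count. By size, they were not simply the lowest 4. Over all 12565 transcripts tested they ranked 11, 16, 51 and 97 from the lowest PFOA difference, in the order given above. Of the 9655 transcripts averaging 5 CPM or more over the 10 libraries, they ranked 1, 2, 7 and 18 from the lowest PFOA difference, in the order ENSMODT00000001267, ENSMODT00000003531, ENSMODT00000018652 and ENSMODT00000007603. In all, 14 of these transcripts were at least 4-fold lower, and ENSMODT00000001267 and ENSMODT00000003531 were the 2 that were at least 8-fold lower. Those 2 pass the 5 CPM cut through their control and GenX levels, and nothing is read from these ranks either.

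The distance from control was also worked out at each time. Counts in each PFOA library were set beside those predicted by the mean CPM of the controls at the same time, with 95% exact Poisson intervals. ENSMODT00000001267 had 8 counts where 483 were predicted, 1.66% (0.715 to 3.26), with 1.45% (0.534 to 3.17) after 12 h and 2.84% (0.343 to 10.2) after 24 h. ENSMODT00000003531 had 7 counts where 123 were predicted, 5.70% (2.29 to 11.8), with 5.76% (2.11 to 12.5) after 12 h and 5.40% (0.137 to 30.1) after 24 h. The 24 h values of this pair rest on 2 and 1 counts, too few to say whether they differ from those at 12 h.

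ENSMODT00000018652 had 21 counts where 121 were predicted, 17.3% (10.7 to 26.5), and its share was 11.7% (6.04 to 20.4) after 12 h against 48.6% (22.2 to 92.2) after 24 h. ENSMODT00000007603 had 261 counts where 1159 were predicted, 22.5% (19.9 to 25.4), with 20.8% (18.1 to 23.7) after 12 h and 38.1% (27.8 to 51.0) after 24 h. For both the 24 h value was the nearer to control, from 9 and 45 counts. Fitted on 24 h libraries alone, their log2 differences were -0.89 and -1.19, against -3.12 and -2.36 on 12 h libraries alone, so that 4 members were at least 4-fold lower at 12 h, as were 0.741% of 11601 transcripts, and 2 at 24 h, as were 3.73% of 10588. Nothing is read from these counts, since the same columns chose the members. The 24 h PFOA libraries were also the shallowest (754708 and 366269 counts) and both carried the number R1 while the 12 h ones carried R2, so time, number and depth cannot be told apart.

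The shallowest library, 800 µM at 24 h, limited what could be seen of the rarer transcripts. For ENSMODT00000001267 it had 0 counts where 19.9 were predicted, and 3 counts would have been 15.1% of control. For ENSMODT00000003531 it had 1 count where 5.23 were predicted, 19.1% (0.484 to 106), and for ENSMODT00000018652 4 where 5.24 were predicted, 76.4% (20.8 to 196). Neither of those was distinguishable from the control level by counting error alone in that library. ENSMODT00000007603, with 18 counts where 33.4 were predicted, was at 53.9% (32.0 to 85.3). With every library thinned to the smallest total, ENSMODT00000003531 no longer passed the low-count filter. The log2 differences of ENSMODT00000001267 and ENSMODT00000018652 were then -5.01 and -1.43, and 1 member remained at least 4-fold lower. Without the 400 µM, 12 h library ENSMODT00000018652 was at -1.91, short of 4-fold.

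**Figure D2:**
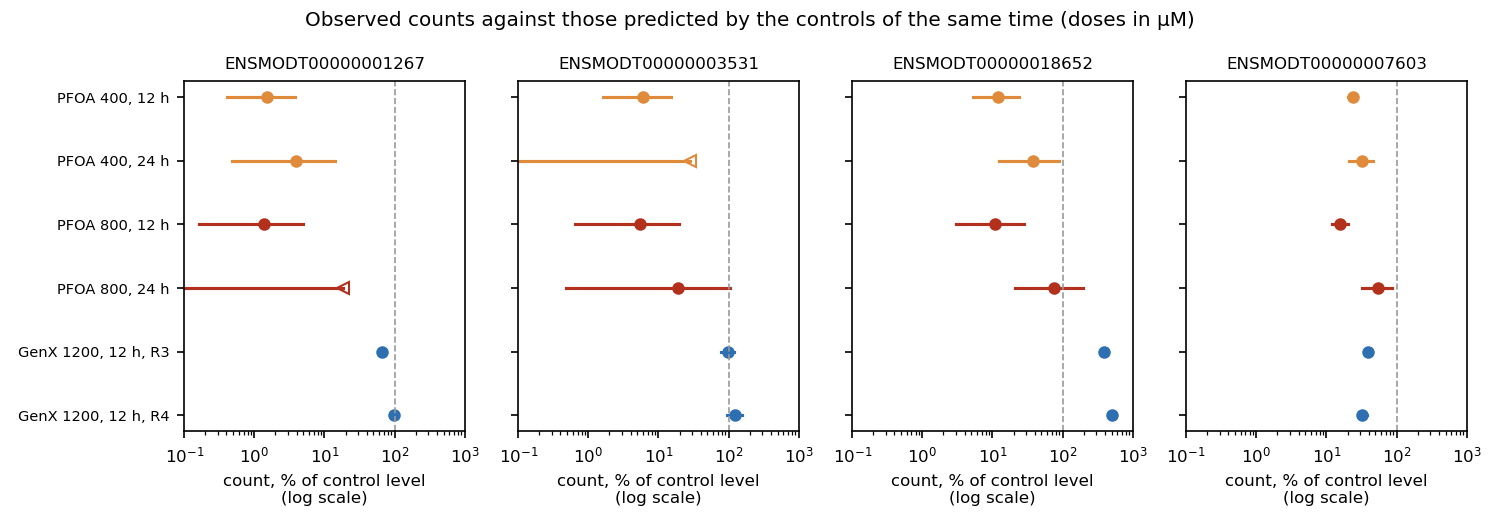
Counts in each PFOA and GenX library as a percentage of the counts predicted from the controls of the same time (log axis), with 95% exact Poisson intervals and the dashed line at 100%; open triangles show the upper limit for libraries with 0 counts, and intervals are clipped at 0.1%. ENSMODT00000001267 stays low in every PFOA library, and ENSMODT00000018652 reaches 76.4% in the 800 µM, 24 h library and 393% and 503% with GenX.

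Doses of PFOA were compared within the fit of all 10 libraries, a difference that the choice of members did not use. No member was called between 800 and 400 µM in edgeR's quasi-likelihood test (0 of 4 at an adjusted p under 0.05), where 0.0159% of 12565 transcripts were called. At an unadjusted p under 0.05 it was 0 of 4, and by DESeq2 0 of 4. Shares of all transcripts are not given for these other counts, so nothing is read from them. The log2 difference was -0.72 for ENSMODT00000001267 (95% interval -3.04 to 1.60, adjusted p = 0.894) and 0.64 for ENSMODT00000003531 (-1.83 to 3.11, adjusted p = 0.919). It was 0.32 for ENSMODT00000018652 (-1.45 to 2.09, adjusted p = 0.933) and -0.03 for ENSMODT00000007603 (-0.99 to 0.93, adjusted p = 0.993) in the same edgeR fit. Single libraries decided the sizes: without the 800 µM, 12 h library ENSMODT00000001267 was at -5.76, ENSMODT00000003531 at 2.03, ENSMODT00000018652 at 1.95 and ENSMODT00000007603 at 0.97. Without the 400 µM, 12 h library the first 3 were at -1.73, 5.73 and -0.53, and without the 800 µM, 24 h library the last 2 were at -0.68 and -0.75. The interval of ENSMODT00000007603 stays within 2-fold in either direction and those of the other 3 do not, so the doses are not shown to act alike. As shares of the predicted counts, 400 and 800 µM gave 1.90% and 1.20% for ENSMODT00000001267, 4.98% and 7.08% for ENSMODT00000003531, 16.4% and 19.1% for ENSMODT00000018652, and 24.5% and 18.8% for ENSMODT00000007603. Both doses were among the columns that chose the members, so low values at either were fixed by that choice.

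GenX was used at a higher concentration than PFOA and at 12 h only, so its values stand beside those of PFOA and say nothing of how the compounds compare at 1 dose. Counts with GenX were 76.7% (95% exact Poisson interval 70.0 to 83.9) of those predicted by the 12 h controls for ENSMODT00000001267, from 65.3% and 99.1% in the 2 libraries. They were 106% (90.6 to 124) for ENSMODT00000003531, 430% (398 to 464) for ENSMODT00000018652, from 393% and 503%, and 36.7% (33.7 to 39.8) for ENSMODT00000007603, from 38.8% and 32.5%. The fitted log2 differences of GenX from control were -0.25, 0.14, 2.38 and -1.29 in the same order, and 0 of the 4 members were at least 4-fold lower, against 0.836% of all transcripts tested. For ENSMODT00000007603 the difference on 12 h libraries alone was -1.51. Of the 9655 transcripts above 5 CPM, ENSMODT00000007603 ranked 41 from the lowest GenX difference and ENSMODT00000018652 ranked 171 from the highest. Over all 12565 transcripts tested these ranks were 286 and 633. PFOA columns below GenX columns were part of how the members were selected, so nothing is read from the fitted PFOA level being at least 4-fold under the GenX level for 3 of the 4 (1.79% of all transcripts tested). The GenX and PFOA differences share the same control libraries.

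The untreated time course took no part in choosing the members, and here each change between times could be tested. These tests treat the 15 libraries as independent, although libraries that shared an identifier were related, as given at the end. In fresh blood ENSMODT00000001267 was at 0.0571, 0.269 and 0.781 CPM in A0036, A0039 and A3538, and after 12 h at 97.5, 111 and 148 CPM. It stood at 789, 937 and 185 CPM after 24 h, at 5286, 3811 and 1850.4 CPM at 48 h and finally, after 72 h, at 3597, 4920 and 1639 CPM. Each identifier climbed by more than 3 orders of magnitude, and A3538 was the highest at 0 and 12 h but the lowest from 24 h on. The means were 0.369 CPM ± 0.372, 119 ± 26.5, 637 ± 399, 3649 ± 1723 and 3385 ± 1650 (SD, n = 3 each).

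On a log scale ENSMODT00000003531 made most of its climb in the first interval. It was at 0.636, 0.319 and 1.36 CPM in fresh blood and at 254, 156 and 241 CPM after 12 h. Later values were 478, 325 and 109 CPM at 24 h, 832, 369 and 346 CPM at 48 h and 964, 264 and 401 CPM at 72 h, with A0036 the highest each time. From 12 h on the ranges of neighbouring times overlapped.

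ENSMODT00000018652 started higher, at 6.86, 4.30 and 6.02 CPM, and reached 244, 94.6 and 252 CPM at 12 h. It stood at 437, 361 and 143 CPM at 24 h, at 742, 329 and 287 CPM after 48 h and at 866, 2013 and 645 CPM after 72 h. A0039, the lowest at 0 and 12 h, held by far the highest value at 72 h.

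ENSMODT00000007603 ran the other way, and less smoothly. It was at 470.3, 118 and 641 CPM at 0 h, at 151, 126 and 133 CPM after 12 h and at 604, 97.6 and 228 CPM after 24 h. It then stood at 59.0, 28.1 and 52.0 CPM after 48 h and at 4.34, 8.27 and 7.27 CPM after 72 h. The ranges overlapped from 0 to 24 h, with A0036 at 24 h as high as fresh blood, while the 48 h values lay below all earlier ones and the 72 h values below those.

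**Figure D3:**
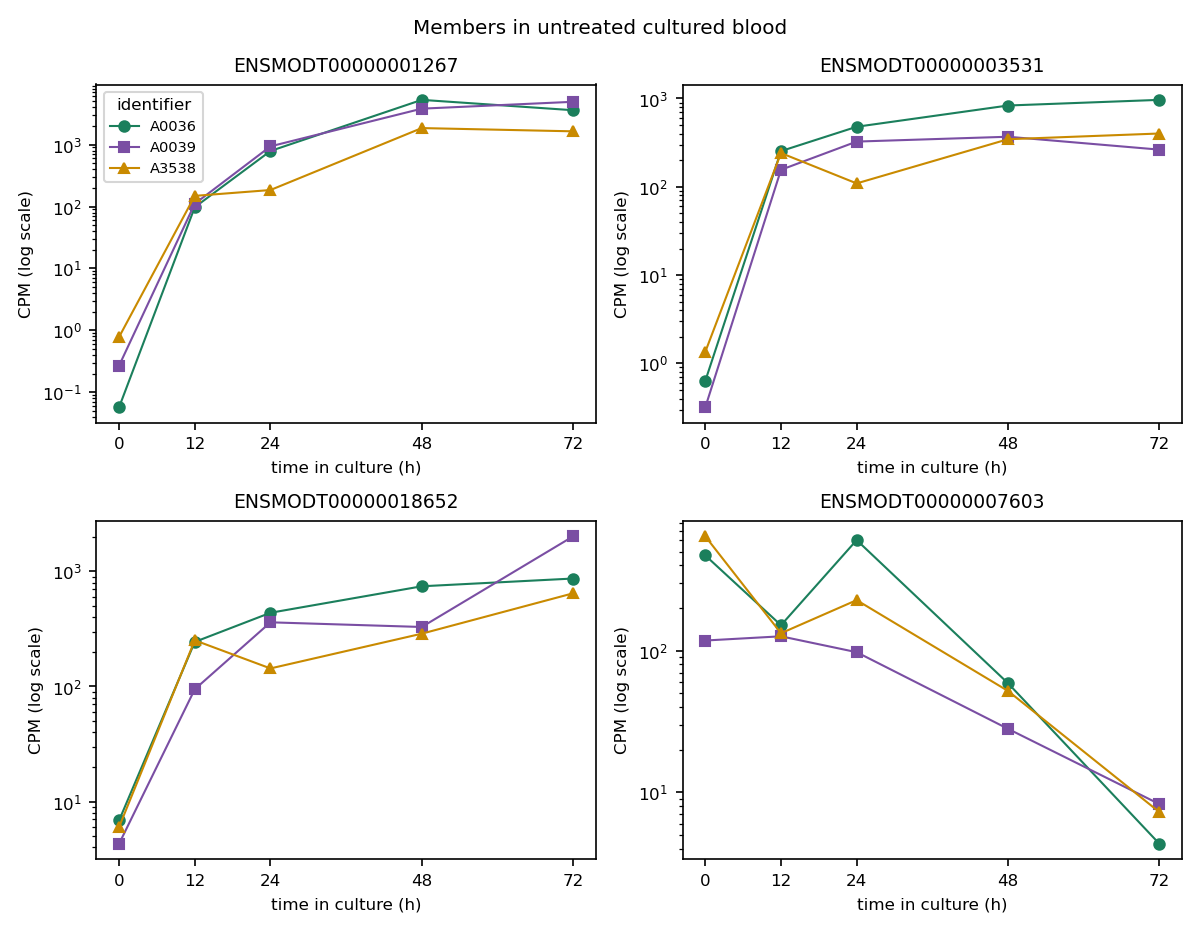
Level of each transcript in untreated blood (CPM, log axis) against culture time (h), with 1 line per identifier. ENSMODT00000001267, ENSMODT00000003531 and ENSMODT00000018652 climb steeply between 0 and 12 h in all 3 identifiers, and ENSMODT00000007603 drops after 24 h to 4.34 to 8.27 CPM at 72 h.

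From 0 to 12 h, 3 of the 4 members were called by edgeR (quasi-likelihood test, Benjamini-Hochberg adjusted p under 0.05), where 7.67% of 15524 transcripts were. ENSMODT00000001267 rose by 8.45 on the log2 scale (SE 0.997, adjusted p = 0.000272), ENSMODT00000003531 by 8.17 (SE 0.8291, adjusted p = 8.33e-05) and ENSMODT00000018652 by 5.10 (SE 0.632, adjusted p = 0.000394) in that edgeR fit. They ranked 21, 29 and 137 from the highest of the 15524. The change of ENSMODT00000007603 was -1.58 (SE 0.616) and was not called, with an edgeR adjusted p of 0.138. Without the 0 h library of A3538, which held the highest fresh-blood value of both, the rise was 9.72 for ENSMODT00000001267 and 8.83 for ENSMODT00000003531.

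Between 12 and 24 h no member was called by edgeR (0 of 4, 1 of 4 at an unadjusted p under 0.05, 1 of 4 by DESeq2), where 0.206% of transcripts were. That share goes with the adjusted edgeR calls alone. Shares of all transcripts at an unadjusted p are not given here or below, so nothing is read from those counts. DESeq2 called more transcripts in all than edgeR, as given at the end. The log2 difference was 2.42 for ENSMODT00000001267 (edgeR adjusted p = 0.299), the member that DESeq2 called (adjusted p = 0.0290). Between 24 and 48 h edgeR again called 0 of 4 (2 of 4 at an unadjusted p under 0.05, 2 of 4 by DESeq2) and 0.0515% of transcripts. ENSMODT00000001267 differed by 2.52 (adjusted p = 0.122) and ENSMODT00000007603 by -2.74 (adjusted p = 0.0699) in edgeR. The latter was -1.79 when the 24 h library of A0036 was left out. For ENSMODT00000001267 all 3 identifiers were higher at 24 than at 12 h and at 48 than at 24 h, with no overlap of the ranges, and neither step passed the edgeR threshold after adjustment over all transcripts. With the identifier as a replicate block, ENSMODT00000007603 was called from 24 to 48 h (-2.60, edgeR adjusted p = 0.0337, with 459 transcripts called in all).

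From 48 to 72 h edgeR called 1 of the 4, against 10.7% of transcripts: ENSMODT00000007603 fell by 2.81 (SE 0.645, edgeR adjusted p = 0.0159). ENSMODT00000018652 differed by 1.38 (edgeR adjusted p = 0.121), and by 0.74 without the 72 h library of A0039. ENSMODT00000001267 and ENSMODT00000003531 differed by -0.11 and 0.08 (edgeR adjusted p = 0.942 and 0.953).

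Over the whole course, 72 against 0 h, all 4 were called, in a comparison where 49.3% of all transcripts were. ENSMODT00000001267 rose by 13.29 on the log2 scale (SE 1.17, edgeR adjusted p = 3.65e-06), ENSMODT00000003531 by 9.49 (SE 0.873, adjusted p = 4.64e-06) and ENSMODT00000018652 by 7.68 (SE 0.711, adjusted p = 4.71e-06). ENSMODT00000007603 fell by 5.95 (SE 0.746, edgeR adjusted p = 4.5e-05). Of the 15524 transcripts the risers ranked 9, 53 and 210 from the highest, and ENSMODT00000007603 ranked 181 from the lowest. Single libraries moved the sizes but not the calls: without the 0 h library of A3538 the first 2 were 14.52 and 10.12, without the 72 h library of A0036 ENSMODT00000003531 was 8.78, and without that of A0039 ENSMODT00000018652 was 7.04.

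The controls of the treatment experiment were also fitted alone for the step from 12 to 24 h. Their levels took part in choosing the members, so these tests are not separate from that choice. Of the 4 members edgeR called 0 (1 of 4 at an unadjusted p under 0.05, 0 of 4 by DESeq2), where 18.2% of 11937 transcripts were called. That share goes with the adjusted edgeR calls alone. Shares are not given for the other counts, so nothing is read from them. The log2 difference was -0.03 for ENSMODT00000001267 (95% interval -0.46 to 0.41), 0.03 for ENSMODT00000003531 (-0.62 to 0.68) and 0.05 for ENSMODT00000018652 (-0.59 to 0.69), with edgeR adjusted p of 0.942, 0.961 and 0.930. For ENSMODT00000007603 it was -0.62 (-1.10 to -0.14, edgeR adjusted p = 0.0703). Within these libraries the intervals of the 3 risers stayed inside 2-fold in either direction. The call for ENSMODT00000007603 rested on which libraries entered: it passed without the 12 h R2 control (adjusted p = 0.0153) or the 24 h R3 control (adjusted p = 0.0187), fits that leave 1 library at that time, assumed to vary like the other 2.

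The change from 12 to 24 h in these controls was also set against the same change in the time course, in 1 edgeR fit of both tables. The controls took part in choosing the members, and the fit assumes a common spread for both experiments. Its p-values and calls, here and in fits that leave out a library, are limited by both points. Of the 4 members 0 were called (2 of 4 at an unadjusted p under 0.05, 1 of 4 by DESeq2), against 3.69% of 15923 transcripts. For ENSMODT00000001267 the change was lower in the controls by -2.51 on the log2 scale (95% interval -4.10 to -0.92, edgeR adjusted p = 0.0850). It was called without the 24 h library of A3538 (-2.92, edgeR adjusted p = 0.00203). For ENSMODT00000007603 the difference was -1.86 (-3.57 to -0.14, edgeR adjusted p = 0.206), or -0.92 when the 24 h A0036 library was left out.

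The tables of the experiments were scaled separately, so levels across them are set side by side only. At 12 h the time course mean was 1.86 times the control mean for ENSMODT00000001267, 13.4 times for ENSMODT00000003531, 12.4 times for ENSMODT00000018652 and 0.848 times for ENSMODT00000007603. At 24 h these ratios were 10.1, 18.3, 18.9 and 2.93. On these separately scaled values the risers stood lower in the control cultures, by more for ENSMODT00000003531 and ENSMODT00000018652 at 12 h than for ENSMODT00000001267. The experiments also differed in identifiers and depth, and the cause of these ratios was not tested.

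PFOA libraries can be set beside fresh blood with the same caution. ENSMODT00000001267 was at 0 to 2.50 CPM with PFOA and at 0.0571 to 0.781 CPM in fresh blood. ENSMODT00000003531 was at 0 to 3.17 and at 0.319 to 1.36 CPM, and ENSMODT00000018652 at 1.74 to 12.7 and at 4.30 to 6.86 CPM. The PFOA values of these 3 rest on 0 to 8 counts per library, where 3 counts are 0.723 to 9.52 CPM, so nearness to the fresh-blood level could not be resolved. For ENSMODT00000001267 all PFOA values above 0 were higher than the fresh-blood range. ENSMODT00000007603 was at 25.3 to 57.1 CPM with PFOA, below its fresh-blood range of 118 to 641 CPM and close to the untreated 48 h range of 28.1 to 59.0 CPM.

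Across the 15 time course libraries the risers followed one another, with Pearson's r on log2 CPM of 0.956 between ENSMODT00000001267 and ENSMODT00000003531, 0.960 between ENSMODT00000001267 and ENSMODT00000018652, and 0.951 between ENSMODT00000003531 and ENSMODT00000018652. Spearman's rho for these pairs was 0.821, 0.886 and 0.875. ENSMODT00000007603 ran against them, with r of -0.642, -0.518 and -0.646 (rho -0.739, -0.589 and -0.679) with ENSMODT00000001267, ENSMODT00000003531 and ENSMODT00000018652. These are descriptions over libraries that share 5 times and 3 identifiers. By Pearson's r each riser was among the 50 transcripts most like each other riser, and ENSMODT00000007603 was in none of those lists. By Spearman's rho no riser was among the 50 nearest to another.

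The transcripts with the most similar time course were looked up in the treatment experiment. The pair nearest to ENSMODT00000001267, ENSMODT00000008201 (r = 0.988) and ENSMODT00000040019 (r = 0.984), had fitted PFOA differences of 2.101 and 1.60 on the log2 scale, on the other side of 0 from the member, both from few counts. With GenX they were at 4.42 and 4.19. ENSMODT00000008201 was at 0.902 to 1.45 CPM in the controls and at 8.86 and 21.6 CPM with GenX. Its PFOA libraries held 10 counts each at 800 µM (4.36 CPM at 12 h and 31.7 CPM at 24 h) and 0 counts each at 400 µM. ENSMODT00000040019 had 1, 4, 0 and 6 counts in the controls and 0, 4, 2 and 0 in the PFOA libraries. Nearest to ENSMODT00000003531 were ENSMODT00000000462 (r = 0.987), with counts of 2, 2, 0 and 0 in the controls and 0 elsewhere and so too low to fit, and ENSMODT00000002388 (r = 0.986), with a PFOA difference of 1.05 and a GenX difference of 1.34. Nearest to ENSMODT00000018652 were ENSMODT00000006395 (r = 0.984) and ENSMODT00000002414 (r = 0.981), neither of which passed the low-count filter in the treatment experiment.

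The transcript nearest to ENSMODT00000007603, ENSMODT00000007230 (r = 0.996), was below 0 in fitted difference with both compounds, as the member was. Its controls were at 78.3, 48.1, 30.7 and 32.6 CPM, its PFOA libraries at 14.9, 19.99, 7.84 and 0 CPM (400 µM at 12 and 24 h, then 800 µM at 12 and 24 h) and its GenX libraries at 16.5 and 18.5 CPM. Its PFOA counts were 62, 16, 18 and 0 in that order, and 3 counts in the last of these libraries are 9.52 CPM. No PFOA or GenX library overlapped the controls. The share of all transcripts without overlap is not given here, so nothing is read from that. For ENSMODT00000007230 the fitted differences were -2.01 with PFOA and -1.68 with GenX. Its next neighbour, ENSMODT00000008650 (r = 0.964), was at -0.29 and -0.20.

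Counted over the 50 nearest, leaving out members, 35 neighbours of ENSMODT00000001267 were tested in the treatment experiment and 19 of them (54.3%) had a fitted PFOA difference below 0, with a median of -0.09. For ENSMODT00000003531 it was 18 of 35 (51.4%, median -0.06), and for ENSMODT00000018652 17 of 35 (48.6%, median 0.03). Over all 12565 transcripts it was 6665 (53.0%, median -0.04), and these 3 shares lie on both sides of it. The shares depend on how likeness is measured: with Spearman's rho they were 60.5%, 68.2% and 70.5% (medians -0.17, -0.38 and -0.21), and with 100 neighbours 63.0%, 60.3% and 56.6%. For ENSMODT00000007603 it was 44 of 48 (91.7%, median -0.42), and with Spearman's rho 32 of 46 (69.6%, median -0.14), no higher a share than the 70.5% of ENSMODT00000018652. At least 4-fold lower were 2, 3, 2 and 1 of the Pearson neighbours, in the order of the members above, or 5.71%, 8.57%, 5.71% and 2.08%, against 0.661% of all transcripts. With Spearman's rho these counts were 0, 0, 0 and 2. The lists of the risers share transcripts, and no test was made of them.

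**Figure D4:**
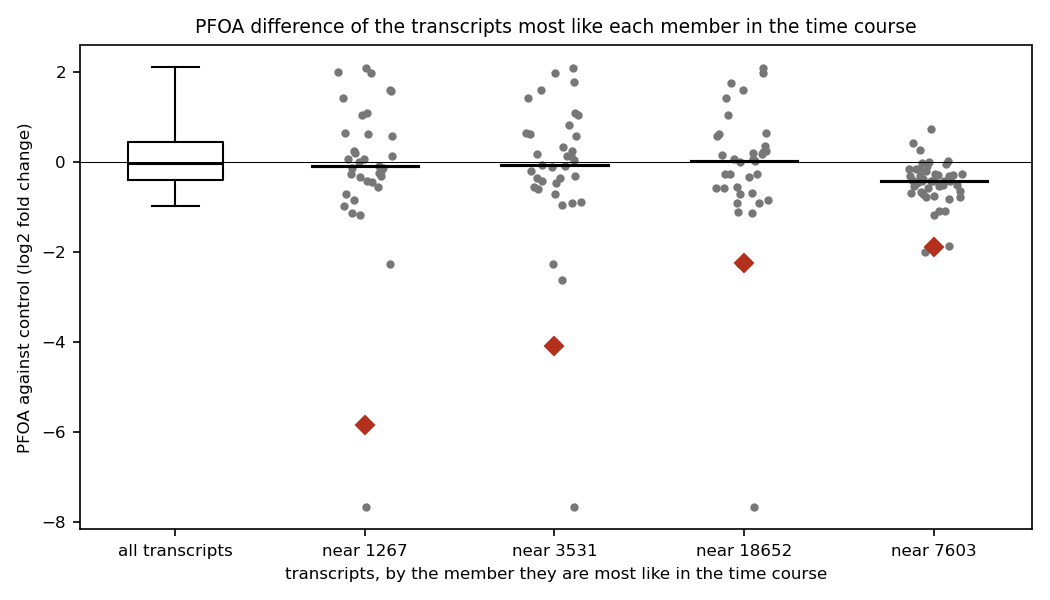
Fitted log2 difference of PFOA from control for the 50 transcripts most like each member in the time course (grey points, those tested in the treatment experiment, with a bar at their median), the member itself (red diamond) and all 12565 transcripts tested (box, with whiskers from the 5th to the 95th percentile). Each member lies below the median of its neighbours, and the neighbours of ENSMODT00000007603 have the highest share below 0 (44 of 48).

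Many transcripts shared the early rise without being lower in the PFOA libraries. From 0 to 12 h, 248 transcripts were called and at least 4-fold higher in the time course, the 3 risers included, and 139 of the others were tested in the treatment experiment. Of these 139, 60 (43.2%) had a fitted PFOA difference below 0, and their median was 0.18, above the -0.04 of all transcripts. On 12 h libraries alone that shift was not seen, with 59 of 120 (49.2%) below 0 and a median of 0.01, against 50.2% and -0.00145 of all. At least 4-fold lower were 5 of the 139 (3.597%), against 0.661% of all transcripts tested. On 12 h libraries alone they were 9 of 120 (7.5%), against 0.741% of 11601. Ordered from the lowest PFOA difference among the 142, members included, ENSMODT00000001267, ENSMODT00000003531 and ENSMODT00000018652 held places 4, 5 and 8. The 5 others had control means of 1.87 to 14.1 CPM. All 5 were singled out after their values were seen. ENSMODT00000020074, ENSMODT00000008610 and ENSMODT00000024336 had 158, 121 and 71 counts over the controls and 0 over the PFOA libraries. ENSMODT00000006343 had 54 and 2 counts, and ENSMODT00000006644 had 537 and 18 and a fitted difference of -2.62. In the PFOA libraries 3 counts are 0.723 to 9.52 CPM, so depth limits these values. ENSMODT00000020074, ENSMODT00000006343 and ENSMODT00000006644 are also the riser neighbours counted above as at least 4-fold lower by Pearson's r. The shares of neighbours and of early risers are therefore not separate observations.

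**Figure D5:**
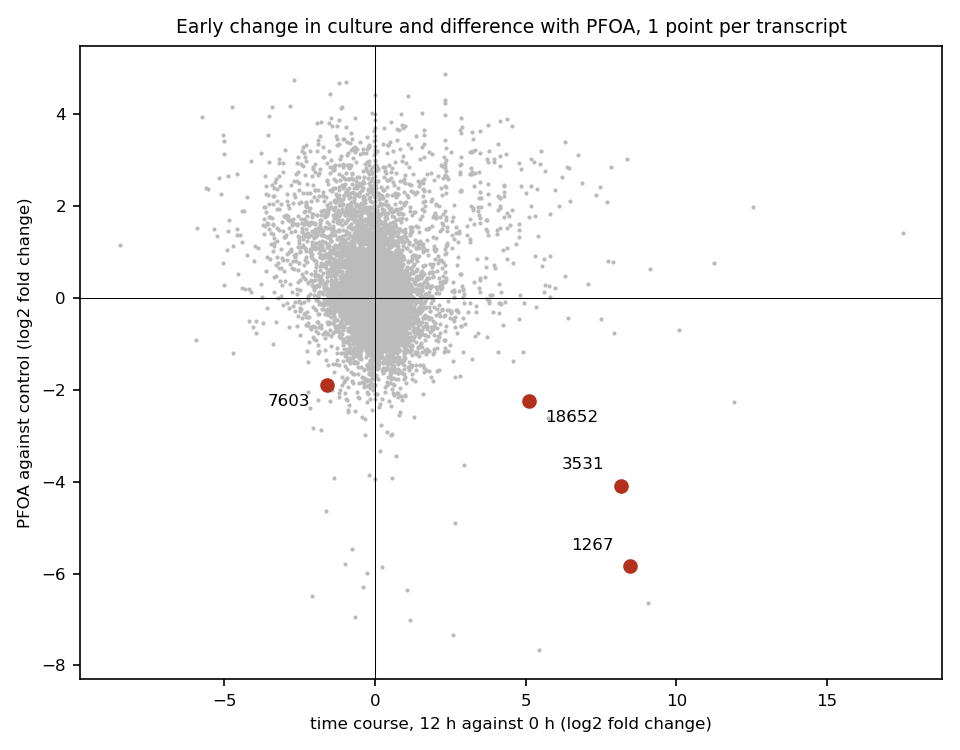
Fitted log2 difference of PFOA from control (y axis) against the log2 change from 0 to 12 h in untreated blood (x axis), with 1 point for each of the 12354 transcripts tested in both experiments and the 4 members in red. ENSMODT00000001267, ENSMODT00000003531 and ENSMODT00000018652 lie at the lower right, with changes of 8.45, 8.17 and 5.10 on the x axis, and ENSMODT00000007603 lies below 0 on both axes; labels give the last digits of each identifier.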

How the data were processed

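For each experiment the authors deposited transcript counts that are whole numbers and were not normalized. The submitters' processing notes list R 4.1.2 with edgeR, TopHat2 2.1.1 and Bowtie2, Trimmomatic 0.36, FastQC 11.5 and bedtools 2.30.0. Not given in the sources used here were the genome build, annotation release and strand setting; overlapping, antisense or near-identical transcripts are uncertain. Each table had 22063 rows, and 4 upper-case copies with identical counts were removed. Members and lists were chosen with earlier results of these data known. Besides the members, the named transcripts are the 2 with the highest Pearson correlation to each member on log2 CPM (prior count 2) over the time course, plus those said to be singled out.

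Tests used the quasi-likelihood method of edgeR 4.0.16 (with R 4.3.3 and limma 3.58.1) on deposited counts, TMM scaling, filterByExpr (minimum count 10) and Benjamini-Hochberg adjustment over all transcripts tested, called at 0.05. The models held time (15 libraries, 15524 tested), treatment and time with a dose term where stated (10 libraries, 12565 tested), or time in the 4 controls (11937 tested). The fit across both tables, the GenX description and the number as a block for PFOA were added after the data were seen. Fitted differences use a prior count of 0.125. The edgeR test was checked on simulated counts for some of the comparisons only, and the outcome of that check is not given here. No replicate pair agreed within sampling noise (chi-square per degree of freedom 9.74 to 7673). Alternatives were DESeq2 1.42.0, other size factors, removal of the 10 most abundant transcripts, no filter, fewer libraries, replicate blocks and leaving out each library.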

Additional observations from a re-analysis of the deposited data

How the results depend on the processing

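Of the values recomputed under the alternatives, the calls from 0 to 12 h (3 members) and from 0 to 72 h (4 members) held under every alternative run. DESeq2 called 1 member from 12 to 24 h, 2 from 24 to 48 h, 2 from 48 to 72 h (ENSMODT00000018652 at 1.44, adjusted p = 0.0444, beside ENSMODT00000007603) and 1 for the difference between the experiments (ENSMODT00000001267 at -2.39, adjusted p = 0.00801). It called 254 transcripts in all from 12 to 24 h, against 32 with edgeR, 893 against 8 from 24 to 48 h, 2669 against 1659 from 48 to 72 h and 1554 against 587 for the difference between the experiments. The identifier as a replicate block called 1 member from 24 to 48 h (ENSMODT00000007603 at -2.60, edgeR adjusted p = 0.0337; 459 transcripts in all) and moved no other count of members. Same-identifier libraries correlated at a median of 0.201 in their deviations from the time means (-0.0583 to 0.501 over 30 pairs, 22 above 0.1). Libraries of different identifiers correlated at a median of -0.0994 (-0.447 to 0.129 over 60 pairs, 3 above 0.1). All 15 of 15 libraries correlated best with their own identifier, so libraries that shared an identifier were related. The main tests left the identifier out because not every pair was above 0.1, and treat the 15 libraries as independent, which by this measure they were not. Their SEs, p-values and shares of transcripts called ignore that pairing. The number as a replicate block beside PFOA left 3 members at least 4-fold lower. Among the controls, 1 member was called from 12 to 24 h with no low-count filter (ENSMODT00000007603 at -0.66, edgeR adjusted p = 0.0142). Leaving out 1 library gave 0 to 1 members called there and 0 to 1 for the difference between the experiments. With every library thinned to 366269 counts, 1 member was at least 4-fold lower with PFOA, as were 8 transcripts in all. Without thinning it was 83 of 12565. Thinned libraries were filtered anew and the number tested is not given here, so the fall in these counts is not read as a loss of difference. The share of the members' neighbours below 0 and the share of early risers at least 4-fold lower are descriptions, and with at least a 16-fold rise the latter was 7.27%.

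The values that changed sign were all uncalled. Leaving out 1 library gave, from 24 to 48 h, -0.027 to 0.87 for ENSMODT00000018652, and from 48 to 72 h -0.48 to 0.25 for ENSMODT00000001267 and -0.64 to 0.60 for ENSMODT00000003531. In the controls from 12 to 24 h it gave -0.18 to 0.090 for ENSMODT00000001267, -0.10 to 0.13 for ENSMODT00000003531 (-0.015 with no filter) and -0.0029 to 0.074 for ENSMODT00000018652. Between PFOA doses it gave -0.68 to 1.95 for ENSMODT00000018652 and -0.75 to 0.97 for ENSMODT00000007603. The latter was 0.12 with DESeq2, 0.014 with DESeq2's size factors in edgeR and 0.083 in the 4 PFOA libraries alone with the number as a replicate block, which equals time there. The cause of these changes was not tested. Depth limits the PFOA values: 3 counts in the 800 µM, 24 h library are 9.52 CPM.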
